A study of Schizosaccharomyces pombe with 16 samples.

Results

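Upstream antisense regions are the stretches of DNA just before a transcription unit, read on the strand opposite to it. Here the regions between tandem units, that is, units whose nearest upstream neighbour lies on the same strand, were examined in *Schizosaccharomyces pombe*. Units and regions were chosen by the control signal of the same 16 arrays: 6 or more successive probes of 1 strand with a smoothed signal past a set threshold made up a unit, and a region was the opposite strand of the 15 probe positions upstream of a unit where neither strand held a unit. This gave 378 tandem regions out of 988 upstream windows free of units, and the remaining 610 windows had a neighbour on the opposite strand (divergent). Each tandem region held 8 antisense probes, no member overlapped another, and 195 belonged to units of the forward strand and 183 to units of the reverse strand. In a divergent gap, RNA upstream of a gene on its opposite strand may also be the 5′ part of the neighbouring gene, while the upstream neighbour of a tandem gap is read in the same direction as the unit.

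Short antisense RNAs that start near promoters and run away from the gene are known as PROMPTs, a class of cryptic unstable transcripts (CUTs). CUTs are normally removed by the nuclear exosome, a 3′ to 5′ RNA degradation machine with the nuclear subunit Rrp6. In fission yeast the MTREC complex, built on the Mtr4-like helicase Mtl1 and the zinc-finger protein Red1, delivers RNA to the exosome, and TRAMP, with the poly(A) polymerase Cid14, is another exosome cofactor.

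RNA of a mutant was labelled with Cy5 and RNA of its control with Cy3, and both were hybridized to 1 strand-specific tiling array without dye swaps. *rrp6Δ*, *red1Δ*, *pab2Δ*, *cid14Δ*, *iss10Δ* and *sen1Δ* had 2 arrays each and *rmn1Δ* had 1, all against wild type and grown in YEA at 30 °C. The temperature-sensitive *mtl1-17* (2 arrays), flag-tagged and kept at 23 °C and then at 37 °C for 4 h, was compared with *mtl1-flag*, whose temperature is not given in the sources used here. The *mmi1Δ mei4-P572* strain (1 array) was compared with *mei4-P572*, so both carried the *mei4* mutation. *red1Δ*, *cid14Δ*, *iss10Δ* and *rmn1Δ* shared the wild-type strain, while *rrp6Δ*, *pab2Δ* and *sen1Δ* each had another one. The study's methods call repeated arrays biological replicates, and they share the strains, so the p-values measure the spread between arrays of 1 pair of strains.

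The files pair no probe with a gene. Probe numbers stepped through the genome 40 bp at a time, and 66 of 73 blocks of 2000 numbers matched the gene positions of the ASM294v3 gene table (correlation of signal with genes between 0.715 and 0.939). Of 2199 placed genes with a known strand, 93.6% had their control signal on the annotated strand. Over the placed *pab2* gene the log2 ratio was −2.56 and −2.55 on the 2 *pab2Δ* arrays and between −0.25 and 0.33 on the others. The deleted gene was also lowest in its own mutant for *rmn1* (−4.60, against −0.52 to 0.10 elsewhere) and *mmi1* (−2.24, against 0.03 to 0.83). In this way 287 regions were placed on chromosome II and 91 on chromosome III, and the units of 326 of the 378 received a gene name. The gap to the upstream unit had a median of 1000 bp and ranged from 600 to 18840 bp. For 281 regions neither strand of the window was mainly covered by a placed gene, for 82 a gene on the strand of the unit covered it, and for 15 a gene on the antisense strand did. In 19 cases both units lay on the same gene, so that the region was a dim stretch inside it. An annotated long noncoding RNA of either strand reached into 272 windows (72.0%).

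The regions were dim in the controls. Their log2 control signal had a median of 5.73 against 10.2 in their own units, and on each array between 18.6% and 69.6% of their probes exceeded the background clearly, by the flag of the software, in the control channel (median 37.1%). In the mutant channel this share lay between 21.2% and 77.1%. Between 9.29% and 45.4% of the probes carried a deposited ratio of exactly 0. The number of arrays, 1 or 2 a mutant, limits the precision, and the values below are log2 ratios of mutant over control after each array was centred on the mean of its sense units.

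RNA from the tandem regions was higher in *rrp6Δ* and in *red1Δ*, *pab2Δ* and *mtl1-17*, mutants of 3 MTREC subunits. The series also holds mutants of the MTREC subunits Rmn1, Iss10 and Mmi1, whose smaller means are given below. Averaged over the 378 regions, the log2 ratio was 0.90 and 0.86 on the 2 arrays of *rrp6Δ*, 0.66 and 0.69 on those of *red1Δ*, 0.47 and 0.55 for *pab2Δ*, and 0.37 and 0.36 for *mtl1-17*. The arrays of these 4 mutants did not overlap. The order of the first 3 rests on the centring, which raised the *rrp6Δ* arrays most. Without it the means were 0.70 and 0.58 in *rrp6Δ*, 0.69 and 0.63 for *red1Δ*, and 0.50 and 0.62 for *pab2Δ*, which overlap. For *mtl1-17* they were 0.31 and 0.29. The place of *mtl1-17* depends on the processing as well. With normexp and loess, another background correction and scaling, the median region was at 0.38 in *rrp6Δ*. It was at 0.21 in *red1Δ*, 0.16 in *pab2Δ* and 0.23 in *mtl1-17*. With the deposited ratios and the centring, the mean was 0.27 on the only array of *rmn1Δ*, a mutant of an RNA-binding MTREC subunit. It was 0.13 and 0.04 in *cid14Δ*, 0.09 and 0.11 in *iss10Δ*, 0.03 in *mmi1Δ mei4-P572*, and 0.03 and −0.03 in *sen1Δ*, the mutant of an RNA/DNA helicase. These last 4 overlapped or lay close together, and all were below the lowest array of *mtl1-17*. On the linear scale the means correspond to 1.84-fold in *rrp6Δ*, 1.59-fold in *red1Δ*, 1.42-fold in *pab2Δ* and 1.29-fold in *mtl1-17*. These sizes depend on the processing: the medians were 0.82, 0.52, 0.45 and 0.34 here, all above those with normexp and loess. In the controls of *mtl1-17*, 69.6% and 57.4% of the region probes were well above background, against 20.7% and 31.4% for *red1Δ*. The effect of this on the ratios was not tested.

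**Figure D1:**
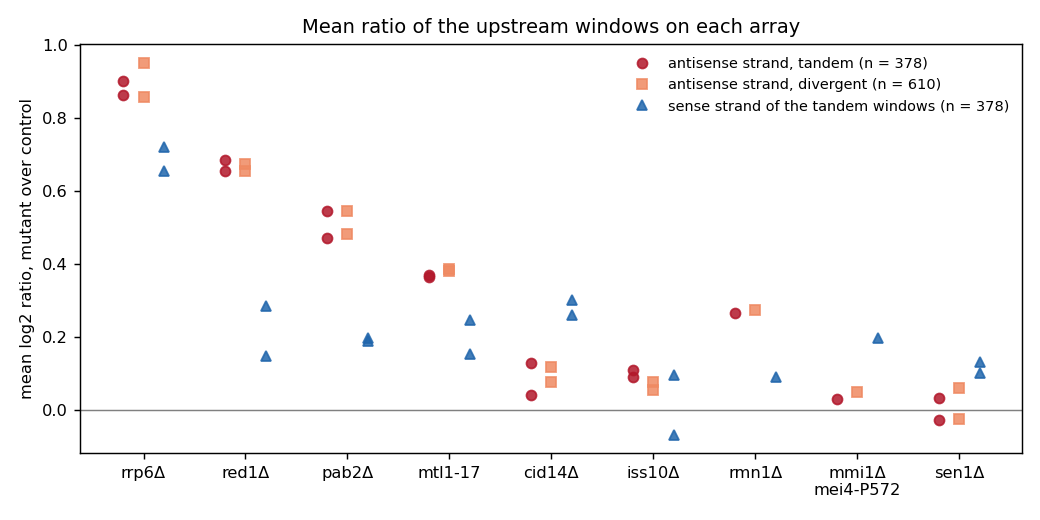
Mean log2 ratio of mutant over control (y axis) on each of the 16 arrays, by mutant (x axis): circles are the antisense strand of the 378 tandem regions, squares the antisense strand of the 610 divergent windows, triangles the sense strand of the tandem windows. Circles and squares lie side by side in every mutant, between 0.86 and 0.95 in *rrp6Δ* and near 0 in *sen1Δ*, while the triangles lie below them in *rrp6Δ*, *red1Δ*, *pab2Δ* and *mtl1-17* and above them in *cid14Δ*.

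Each region was then tested against a ratio of 0 with limma in 1 fit over all 8951 features of the array (Benjamini-Hochberg adjusted p under 0.05). In *rrp6Δ*, 263 of the 378 regions were higher and 21 lower, where 42.3% of all features were higher and 14.4% lower. In *red1Δ*, 203 were higher and 18 lower, against 27.7% and 12.8% of all features. In *pab2Δ*, 191 were higher and 38 lower, against 22.4% and 15.1%. In *mtl1-17*, 153 were higher and 25 lower, against 18.2% and 4.93%. In all 4 mutants the share of regions that rose (69.6%, 53.7%, 50.5% and 40.5%) was above that of the whole array, and the share that fell was below it except in *mtl1-17*. The median region changed by 0.82, 0.52, 0.45 and 0.34 in these mutants, where the median over all features was 0.25, 0.04, −0.03 and 0.08. A rise of at least 1 on the log2 scale was reached by 152, 123, 96 and 60 of the regions past the test, and one of at least 2 by 40, 29, 21 and 1. Such rises were not counted over all features. The 90th percentile of the ratio was 2.05, 1.83, 1.65 and 1.22 over the regions and 1.54, 1.09, 0.90 and 0.72 over all features. Fewer arrays gave fewer calls: without array 2 of *pab2Δ* 122 regions were higher, and without array 1 or array 2 of *mtl1-17* 84 and 91 were.

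In *cid14Δ*, 61 regions were higher and 30 lower, against 12.2% and 7.37% of all features. The share of regions that rose, 16.1%, was thus close to that of the array, and the median region stood at 0.03. Without array 1 of *cid14Δ* only 28 regions were higher. In *iss10Δ*, 12 regions were higher and 1 lower (1.11% and 0.123% of all features), and in *sen1Δ* 14 were higher and 19 lower (5.21% and 2.68%). The *sen1Δ* count was 2 without its array 1 and 4 without its array 2, and its split was 5 higher and 22 lower without centring, 11 and 2 with normexp and loess and 5 and 3 in the series table. In *mmi1Δ mei4-P572*, 18 were higher and 12 lower (3.21% and 1.87%), or 13 and 17 without centring and 8 and 9 with normexp and loess. In *rmn1Δ*, 20 regions were higher and 0 lower by limma (1.25% and 0.123%), and at an unadjusted p under 0.05 91 were higher and 9 lower (8.26% and 3.07% of all features). The single arrays of *rmn1Δ* and *mmi1Δ mei4-P572* were assumed to vary like those of the other mutants.

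**Figure D2:**
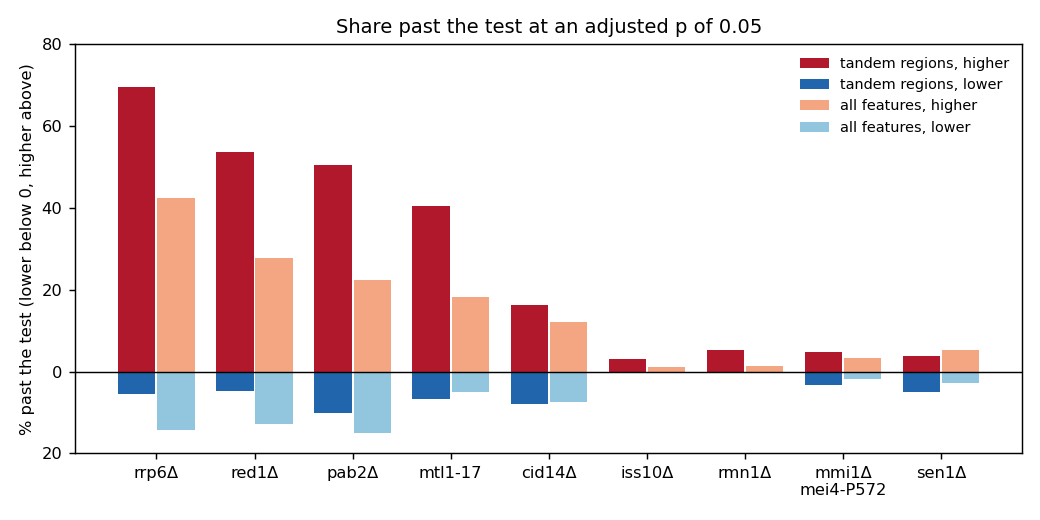
Share of features past the limma test at an adjusted p under 0.05 (y axis, %; higher above 0, lower below 0) in each mutant (x axis). Dark bars are the 378 tandem regions and light bars all 8951 features; in *rrp6Δ* 69.6% of the regions and 42.3% of all features were higher.

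Since the control signal chose the regions and is also the denominator of the ratio, the regions were chosen anew for each mutant from the control channels of the arrays of the other mutants. This gave 386 regions for *rrp6Δ*, of which 69.2% were higher, and 52.7% of 368 were higher in *red1Δ*, 48.9% of 358 in *pab2Δ*, 42.9% of 392 in *mtl1-17* and 16.7% of 359 in *cid14Δ*. Their medians were 0.83, 0.51, 0.44, 0.37 and 0.04. These medians were close to those of the 378 regions (0.82, 0.52, 0.45, 0.34 and 0.03). Most regions called higher before were called again (228 of 263 in *rrp6Δ*, 173 of 203 in *red1Δ*). The control strain of *red1Δ* and *cid14Δ* was also that of other mutants, so it still took part in the choice. The effect of choosing by the control signal on the ratios was not tested. Tandem units with a gap 1 step too short for the rule (13 positions, 71 cases) had a mean of 0.87 in *rrp6Δ* and 0.81 in *red1Δ*, and those just inside it (15 positions, 56 regions) 1.01 and 1.04.

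The regions higher in another mutant were also higher in *rrp6Δ* at rates near those over the whole array. In the other direction, the regions higher in *rrp6Δ* were shared with *red1Δ*, *pab2Δ* and *mtl1-17* at rates above those of the array. Over all features these rates were 52.3%, 41.0% and 39.0%. All 378 regions together were also called higher more often in these mutants (53.7%, 50.5% and 40.5%) than all features were (27.7%, 22.4% and 18.2%). Of the 203 regions higher in *red1Δ*, 172 (84.7%) were also higher in *rrp6Δ*, which is 65.4% of the 263 of *rrp6Δ*. For *pab2Δ* the shared number was 158 (82.7% of its 191, 60.1% of those of *rrp6Δ*), and for *mtl1-17* 136 (88.9% of its 153, 51.7% of those of *rrp6Δ*). For *cid14Δ* it was 50 (82.0% of its 61). Over all features, 79.9% of those higher in *red1Δ*, 77.6% of those in *pab2Δ*, 90.6% of those in *mtl1-17* and 74.4% of those in *cid14Δ* were also higher in *rrp6Δ*. *red1Δ* and *pab2Δ* shared 169 regions (83.3% and 88.5%, against 63.6% and 78.7% over all features). No region was higher in one and lower in the other, but few were called lower at all (18 and 38). The matching share over all features was not counted. A set of 109 regions (28.8%) was higher in all of *rrp6Δ*, *red1Δ*, *pab2Δ* and *mtl1-17*. Another 66 (17.5%) were higher in *rrp6Δ* and in none of the other 3, and 44 (11.6%) in at least 1 of these 3 and not in *rrp6Δ*. A further 62 (16.4%) were higher in no mutant of the series. Over all features these shares were 10.4%, 15.7%, 9.09% and 44.5%. Passing the test in one mutant and not in another does not show that they differ, which the contrasts between mutants below address.

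The increase was not spread evenly over the window. Next to the unit, 40 bp from its first probe, the mean ratio was lowest, at 0.61 ± 0.001 in *rrp6Δ*, 0.23 ± 0.11 in *red1Δ*, 0.11 ± 0.01 in *pab2Δ* and 0.16 ± 0.05 in *mtl1-17* (SD, n = 2 arrays). It was highest 360 bp upstream in *rrp6Δ* (1.08 ± 0.04) and *pab2Δ* (0.72 ± 0.07) and 280 bp upstream in *red1Δ* (0.91 ± 0.01) and *mtl1-17* (0.52 ± 0.01). At 600 bp it had come down to 0.76 ± 0.01 in *rrp6Δ* and 0.59 ± 0.02 in *red1Δ*. In all 4 mutants the difference between the peak and the position next to the unit was larger than the spread between arrays. On the antisense strand inside the unit, 400 bp from its start, *rrp6Δ* stayed at 0.49 ± 0.10 while *red1Δ* was at 0.11 ± 0.10. The *rmn1Δ* array had its highest mean at 360 bp too (0.39), and no such peak stood out in *cid14Δ*, where the mean ranged from 0.01 to 0.13 over the window.

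**Figure D3:**
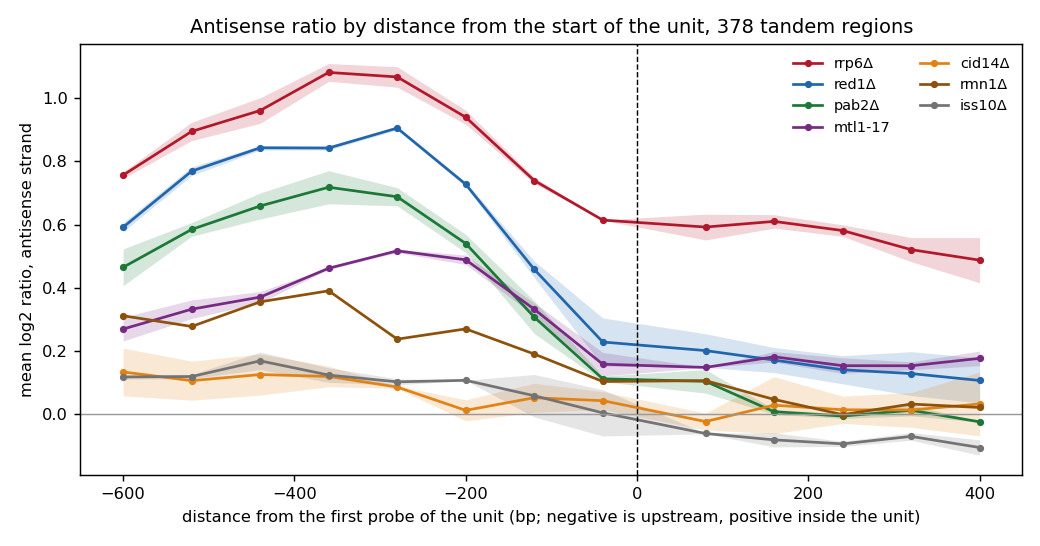
Mean log2 ratio on the antisense strand (y axis) by distance from the first probe of the unit (x axis, bp; negative is upstream), over 378 tandem regions in 7 mutants; bands span the lowest and highest array. In *rrp6Δ*, *red1Δ*, *pab2Δ* and *mtl1-17* the curves are highest 280 to 360 bp upstream and lower next to the unit.

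The increase also faded towards the upstream neighbour. In 299 regions the last 15 positions of the neighbouring unit could be read on the same antisense strand. There the mean was 0.45 ± 0.14 in *rrp6Δ*, 0.13 ± 0.10 in *red1Δ*, −0.10 ± 0.03 in *pab2Δ* and 0.03 ± 0.06 in *mtl1-17* (SD, n = 2), while the same 299 regions had 0.90 ± 0.03, 0.74 ± 0.01, 0.57 ± 0.04 and 0.39 ± 0.01. In each of these mutants the region was above the end of the neighbouring unit by more than the spread between arrays.

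Both strands of a window lie on the same array, so a shift of the array cancels in their difference. The sense strand of the tandem windows rose less than the antisense strand in *rrp6Δ* (0.69 ± 0.05), *red1Δ* (0.22 ± 0.10), *pab2Δ* (0.19 ± 0.005) and *mtl1-17* (0.20 ± 0.07, SD, n = 2). Tested window by window with limma over all 988 upstream windows, the antisense strand was above the sense strand in 135 tandem windows and below it in 79 in *rrp6Δ* (39.5% and 21.1% of all windows). In *red1Δ* these were 163 and 47 (40% and 14.1%), in *pab2Δ* 126 and 49 (32.9% and 14.5%), and in *mtl1-17* 94 and 42 (25.3% and 10.8%). In *cid14Δ* the order was reversed: the antisense strand was above in 33 windows and below in 83 (8.81% and 16%), and the sense strand had a mean of 0.28 ± 0.03 against 0.08 ± 0.06 on the antisense strand. The tandem shares were near those of all windows, save for *cid14Δ*, where the tandem share with the antisense strand below was higher (83 of 378). Leaving out an array reduced these counts without changing which strand had more in *rrp6Δ*, *red1Δ*, *pab2Δ*, *mtl1-17* and *cid14Δ*. Without array 1 of *rrp6Δ* the lower count was 51, and without array 1 of *red1Δ* the counts were 105 and 30. The lower count was 31 without array 2 of *red1Δ*, and 19 and 30 without array 1 and array 2 of *pab2Δ*. Without array 1 of *mtl1-17* the counts were 36 and 23, and without array 2 they were 55 and 20. In *cid14Δ* they were 19 and 47 without array 1 and 20 and 47 without array 2.

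Tandem and divergent windows had similar means. The tandem mean minus the divergent mean was −0.02 ± 0.04 in *rrp6Δ*, 0.007 ± 0.007 in *red1Δ*, −0.006 ± 0.007 in *pab2Δ* and −0.01 ± 0.03 in *cid14Δ* (SD, n = 2), none larger than the spread between arrays. It was −0.017 ± 0.0006 in *mtl1-17*. Of the divergent windows, 70.7% were higher in *rrp6Δ* and 53.9% in *red1Δ*, next to 69.6% and 53.7% of the tandem regions.

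The regions varied with the chromosome, the gap, the unit and the cover by genes. In *rrp6Δ*, *red1Δ* and *pab2Δ* the 19 regions inside 1 gene had means of 0.56 ± 0.20, −0.02 ± 0.10 and −0.18 ± 0.01 (SD, n = 2). The other 359 had 0.90 ± 0.04, 0.71 ± 0.02 and 0.55 ± 0.06. Means were 0.58 ± 0.07, 0.42 ± 0.03 and 0.32 ± 0.03 in the 82 windows covered by a gene on the strand of the unit. The 281 windows covered on neither strand had 0.95 ± 0.07, 0.76 ± 0.02 and 0.58 ± 0.06. In *rrp6Δ*, 130 of 195 regions of forward units and 133 of 183 of reverse units were higher, as were 201 of 287 on chromosome II and 62 of 91 on chromosome III. Other mutants had higher means on chromosome II than on III: 0.72 ± 0.02 and 0.52 ± 0.01 in *red1Δ*, 0.54 ± 0.05 and 0.41 ± 0.05 for *pab2Δ*, and 0.40 ± 0.01 and 0.26 ± 0.0001 for *mtl1-17* (SD, n = 2). Where the gap was 600 to 760 bp (125 regions), the mean was 0.94 ± 0.04 in *rrp6Δ* and 0.91 ± 0.01 in *red1Δ*. Where it was 2040 bp or more (52 regions), the mean was 0.75 ± 0.001 in *rrp6Δ* but 0.33 ± 0.05 in *red1Δ*. *pab2Δ* went from 0.76 ± 0.04 to 0.27 ± 0.06 and *mtl1-17* from 0.47 ± 0.02 to 0.14 ± 0.01, whereas *cid14Δ* was higher at the long gaps, with 0.06 ± 0.06 and 0.33 ± 0.05 (SD, n = 2). The control signal of the regions also differed, with a median of 5.59 at the short and 6.24 at the long gaps, and its part in the result was not tested.

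The strength of the unit went with a similar difference. Over the 126 units with the lowest control signal the regions had a mean of 0.80 ± 0.02 in *rrp6Δ*, 0.40 ± 0.06 in *red1Δ*, 0.26 ± 0.06 in *pab2Δ* and 0.20 ± 0.02 in *mtl1-17*. Over the 126 with the highest, they had 0.97 ± 0.06, 0.97 ± 0.02, 0.76 ± 0.06 and 0.52 ± 0.02 (SD, n = 2). In *red1Δ*, *pab2Δ* and *mtl1-17* the strong units were above the weak ones by more than the spread between arrays. *cid14Δ* was at 0.10 ± 0.05 and 0.10 ± 0.04. The control signal of the regions themselves had a median of 5.68 at the weak and 5.98 at the strong units.

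**Figure D4:**
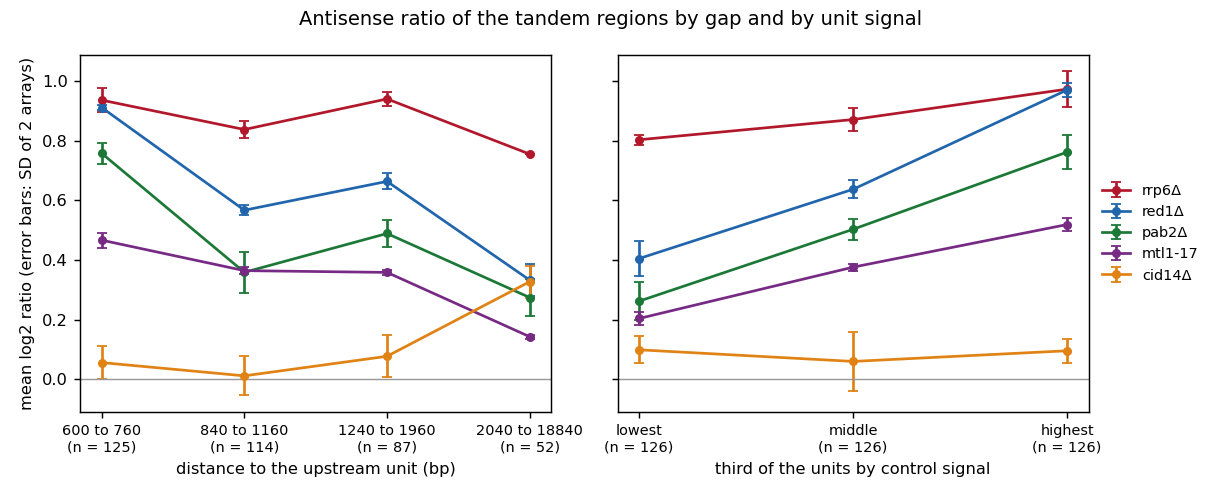
Mean log2 ratio on the antisense strand (y axis; points are the mean and bars the SD of 2 arrays) by the distance to the upstream unit (left) and by the control signal of the own unit in 3 classes of 126 (right), in 5 mutants. *red1Δ* falls from 0.91 at the shortest gaps to 0.33 at the longest and rises from 0.40 to 0.97 with the unit signal, while *rrp6Δ* stays between 0.75 and 0.97.

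In *rrp6Δ*, *red1Δ* and *mtl1-17*, the units of the regions that rose passed the test at rates near those of all units. Of the 263 regions higher in *rrp6Δ*, the sense strand of the own unit was higher in 66, lower in 53 and not past the test in 144, beside 21.5% higher and 24.7% lower among all 2540 units. Of the 203 of *red1Δ*, 37 units were higher, 29 lower and 137 not past the test (19.1% and 17.4% of all units). In *mtl1-17*, 141 of 153 units (92.2%) were not past the test, as were 89.4% of all units. *pab2Δ* differed, with 15 of 191 units higher and 20 lower, beside 14.9% and 10.5% of all units. There 81.7% of the 191 units were not past the test, against 74.6% of all units. Among the own units of all 378 regions, 31 were higher in *pab2Δ*. Across the 378 regions, the ratio of a region and that of its unit had a Pearson correlation of 0.10 in *rrp6Δ*, 0.15 in *red1Δ*, 0.19 in *pab2Δ* and 0.30 in *mtl1-17*. These are correlations across regions that share arrays, given as a description.

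The contrasts between mutants asked where they differed. They set 2 ratios against each other, each with its own control. Between *red1Δ* and *rrp6Δ*, 39 regions were higher in *red1Δ* and 92 lower, where 6.09% and 19.4% of all features were. Without centring 61 were higher and 59 lower (12.9% and 11.6% of all features), so which mutant was higher in more regions depends on the scaling. The total of 131 was 55 without array 1 of *red1Δ* and 84 without array 1 of *rrp6Δ*. Between *pab2Δ* and *red1Δ*, 7 regions were higher and 10 lower in *pab2Δ* (1.98% and 2.84% of all features). The split was 9 and 5 without centring, 2 and 12 with normexp and loess and 7 and 19 in the series table. Array 2 of both mutants lay on the same slide, and the total of 17 became 35 with slide as a random block and 51 with slide as a fixed term. Leaving out array 1 or array 2 of *pab2Δ* left 3 and 2 regions, and leaving out either array of *red1Δ* left 4. *cid14Δ* stood apart from both. It was above *rrp6Δ* in 15 regions and below it in 216 (7.52% and 31% of all features), and above *red1Δ*, with which it shares the control strain, in 20 and below it in 166 (7.83% and 17.4%).

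Single regions are named here by the gene on which their unit was placed, and were taken by a fixed rule of size and sign, so their values are a description of the extremes. Of the 378 units, 52 lay in blocks of probe numbers that missed the match to the gene table, and 39 of these carry a name carried over from a neighbouring block. Among the named ones these are SPBPB2B2.18, *say1*, *fta7* and SPBC23G7.10C. The blocks of the last 2 matched at about the offset of their neighbours with a correlation of 0.656 and 0.66, while that of SPBPB2B2.18 and *say1* had no such match, so these 2 names are uncertain. The strongest rise in *rrp6Δ* was antisense to *clr4*, the histone H3 lysine 9 methyltransferase of heterochromatin. It reached 5.18 and 5.56 on the 2 *rrp6Δ* arrays (41.4-fold, adjusted p = 4.9e-09), and both units beside it lay on *clr4*, so this region is inside the gene. The other mutants were far below, with 0.79 and 1.07 for *red1Δ*, 0.65 and 0.59 for *pab2Δ*, −0.69 and −0.23 in *mtl1-17* and −0.07 and −0.48 in *cid14Δ*, and *red1Δ* differed from *rrp6Δ* by −4.44 ± 0.31 (SE, adjusted p = 3.6e-06). Another region that set *rrp6Δ* apart was the one upstream of *fta7*, a kinetochore gene, with *get2* as its neighbour. It had 3.04 and 3.02 in *rrp6Δ*, 1.47 and 1.26 in *red1Δ*, and 1.66 and 1.16 in *pab2Δ*.

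Upstream of *hrd1*, an endoplasmic reticulum ubiquitin ligase, the arrays of *rrp6Δ* gave 3.86 and 3.62, those of *red1Δ* 2.14 and 2.41, those of *pab2Δ* 1.54 and 1.97, and those of *mtl1-17* 0.98 and 1.33. Only 1 of the 8 probes was well above background in the controls of *rrp6Δ*, against 8 in those of *mtl1-17*, so the mutants cannot be ranked here. In the controls of *red1Δ* and *pab2Δ* none of the 8 probes was well above background, so that the region was at least 1.38-fold and 1.09-fold higher there, the mutant signal set against the higher of the control signal and the lowest signal well above background on the array. The sense strand of the same window had a log2 ratio of 1.56 in *red1Δ* and 1.61 in *pab2Δ*. Upstream of *rrp5*, a ribosome biogenesis gene, *rrp6Δ* (3.59 and 2.80) and *red1Δ* (2.83 and 3.12) overlapped, and their difference of −0.22 ± 0.27 (SE) did not pass the test (adjusted p = 0.59). The sense strand of that window was at 3.13 in *rrp6Δ*, so the rise was on both strands there, and at 0.91 in *red1Δ*.

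The largest rises in *red1Δ* and *pab2Δ* lay upstream of *fmo1*, a flavin-dependent monooxygenase gene whose neighbour is the iron regulator *php4*. The ratios were 4.14 and 3.79 in *red1Δ* (15.6-fold), 3.47 and 3.32 in *pab2Δ*, 2.87 and 3.12 in *rrp6Δ*, and 1.40 and 1.55 in *mtl1-17*. Here *red1Δ* was above *rrp6Δ* on every array, by 0.97 ± 0.23 (SE, adjusted p = 0.01). Of the 8 probes, 4 were well above background in the controls of *red1Δ* and 7 in those of *rrp6Δ*, so the size of this difference is not firm. The region also rose in *rmn1Δ* (1.83), *iss10Δ* (1.66 and 0.94), *mmi1Δ mei4-P572* (1.05) and *cid14Δ* (0.93 and 0.60), and was at −0.09 in *sen1Δ*. The sense strand of the *fmo1* unit lay between −0.59 in *rrp6Δ* and 0.67 in *sen1Δ*. On the sense strand of the window the ratio was 1.18 in *rrp6Δ*, 1.46 in *red1Δ*, 1.46 in *pab2Δ* and 2.75 in *mmi1Δ mei4-P572*, so both strands rose there. In the remaining mutants it lay between −0.13 in *sen1Δ* and 0.36 in *rmn1Δ*. Upstream of *pex5*, the receptor for import into peroxisomes, *red1Δ* (3.62 and 3.21) was again above *rrp6Δ* (2.62 and 2.49). In the controls of *red1Δ* 4 of the 8 probes were well above background, against 7 in those of *rrp6Δ*, so the size of this difference is not firm. The sense strand of that window was at 2.21 in *rrp6Δ* and 1.22 in *red1Δ*. The strong unit of *rpl402*, a ribosomal protein gene with a log2 control signal of 13.5, had 3.21 and 3.35 for *red1Δ*, 2.58 and 3.03 for *pab2Δ*, and 2.73 and 2.68 for *rrp6Δ* upstream of it.

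Upstream of *rba50*, named for an RNA polymerase II assembly factor of budding yeast, *rrp6Δ* (2.96 and 2.88), *red1Δ* (2.94 and 3.09) and *pab2Δ* (3.05 and 2.81) overlapped. Its ratios were 2.07 and 1.57 in *mtl1-17* and 0.98 and 0.94 in *cid14Δ*. The highest regions of *mtl1-17* lay upstream of *puf1*, which encodes a pumilio-family RNA-binding protein (2.01 and 2.06), of *crb2*, a DNA damage checkpoint gene (2.15 and 1.76), and of *say1* (2.03 and 1.82). Upstream of *puf1* both arrays of *mtl1-17* were above those of *rrp6Δ* (1.84 and 1.11), *red1Δ* (1.54 and 1.93) and *pab2Δ* (1.30 and 1.22). Upstream of *say1* they were above *rrp6Δ* (0.76 and 0.97) and *pab2Δ* (1.21 and 1.07) but overlapped with *red1Δ* (1.27 and 1.88), in whose controls no probe was well above background. The differences of *mtl1-17* from these mutants were not tested.

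The region upstream of *bir1*, the survivin of the chromosomal passenger complex, separated *pab2Δ* from *red1Δ*. It stood at 3.11 and 2.90 in *pab2Δ* but at 0.89 and 0.93 in *red1Δ*, a difference of 2.09 ± 0.22 (SE, adjusted p = 0.00035). Only 1 of the 8 probes was well above background in the controls of *pab2Δ* and of *red1Δ*, so the size of this difference is not firm. The region of SPBC609.01, which lies inside that gene since both units were placed on it, was also higher in *pab2Δ* (1.36 and 0.98) than in *red1Δ* (−0.04 and 0.06), with no probe well above background in either control, so that no fold is given. In the other direction, the region upstream of SPBC23G7.10C had 2.81 and 2.72 in *red1Δ* and 0.32 and 0.60 in *pab2Δ*. That upstream of *ilv6*, the regulatory subunit of acetolactate synthase, had 2.51 and 2.67 against 1.44 and 0.87.

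Of the 3 highest regions of *cid14Δ*, those of *rtn1* and *rbd3* were near 0 in *red1Δ*. Upstream of *rtn1*, a reticulon gene, *cid14Δ* reached 2.06 and 1.75 (3.74-fold), *rrp6Δ* 0.74 and 0.53, and *red1Δ* −0.26 and −0.00. The region upstream of *rbd3* gave 2.14 and 1.60 in *cid14Δ* and −0.39 and 0.16 in *red1Δ*. *cid14Δ* was above *red1Δ* by 2.03 ± 0.18 and 1.99 ± 0.39 (SE, adjusted p = 1.7e-05 and 0.0029) in these regions. At *rbd3* only 2 of the 8 probes were well above background in the controls of *cid14Δ* and of *red1Δ*. In the mutant channel of *red1Δ* 2 were so on both arrays, so the size of that difference is not firm. The third belonged to the unit that starts at probe 30881 and received no gene name, with 2.40 and 2.21 in *cid14Δ*, 2.56 and 3.56 in *rrp6Δ*, 3.05 and 2.59 in *red1Δ*, and 3.12 in *mmi1Δ mei4-P572*.

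Regions also fell, 21 past the test in *rrp6Δ* and 38 in *pab2Δ*, and the lowest of these are described here. Upstream of *ptr2*, the peptide transporter gene, the ratio was −1.71 and −1.39 in *rrp6Δ*, −1.45 and −1.22 for *red1Δ*, −1.34 and −1.27 for *pab2Δ* and −1.29 and −0.79 for *mtl1-17*, but 1.60 and 1.08 in *cid14Δ*. All 8 arrays of the first 4 mutants were below 0 and both of *cid14Δ* above, and *cid14Δ* exceeded *red1Δ* by 2.67 ± 0.22 (SE, adjusted p = 9.4e-06). The sense strand of this window was at −1.15 in *rrp6Δ*. Upstream of SPBPJ4664.02, antisense RNA fell in *rrp6Δ* (−1.34 and −1.61) while the sense strand of the window was at 2.25 and that of the unit at 2.08. Upstream of *msy1*, a mechanosensitive channel gene, it fell in *rrp6Δ* (−1.56 and −1.19) and not in *red1Δ* (−0.04 and −0.08).

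The lowest regions of *pab2Δ* were those of SPBPB2B2.18, of *efc25*, which encodes a guanine nucleotide exchange factor for Ras, and of the unnamed unit starting at probe 113502. Upstream of *efc25* the ratio was −1.81 and −1.96 in *pab2Δ* and −1.21 and −1.27 in *red1Δ*, but 0.12 and −0.24 in *rrp6Δ*, so *red1Δ* was below *rrp6Δ* by 1.18 ± 0.18 (SE, adjusted p = 0.00085). Upstream of SPBPB2B2.18 the mutants stood far apart, with 2.06 and 4.19 in *rrp6Δ* and −2.28 and −1.56 in *pab2Δ*. The *rrp6Δ* arrays differed from each other more there than at any other of the named regions, and the sense strand of the unit was at 3.17 in *rrp6Δ* and −1.80 in *pab2Δ*.

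**Figure D5:**
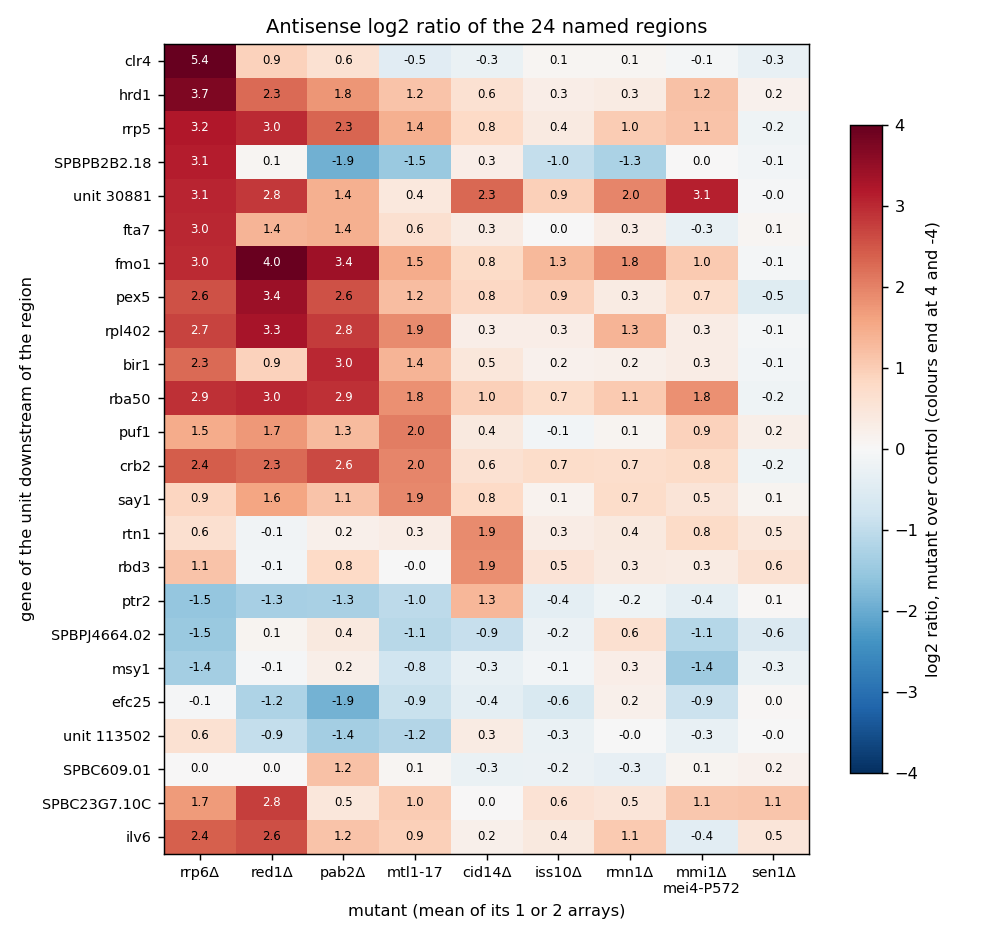
Mean log2 ratio on the antisense strand (colour and printed value) of the 24 named regions (rows, by the gene of the unit downstream) in each mutant (columns, mean of 1 or 2 arrays). Most rows are above 0 in *rrp6Δ*, *red1Δ*, *pab2Δ* and *mtl1-17*, *clr4* is high in *rrp6Δ* alone at 5.4, and *rtn1* and *rbd3* are highest in *cid14Δ* at 1.9.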

How the data were processed

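Custom 2-colour Agilent tiling arrays were scanned and processed by the authors with Feature Extraction 10.7.1.1 and 10.7.3.1 (from the file headers). The deposited intensity of each channel was background-subtracted, detrended and dye-normalized within the array, and the deposited log10 ratio is Cy5 (mutant) over Cy3 (control). Deposited 0 or 1 flags mark spots well above background and outliers. The deposited series table holds log2 ratios and served as an alternative.

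Log10 ratios were converted to log2, outlier spots dropped, and each array centred on the mean of its sense units, after the study's methods. A feature is the mean of at least 3 probes. All 16 arrays entered 1 limma fit (lmFit, eBayes, two-sided, each mutant against 0 or against another mutant), with Benjamini-Hochberg adjustment over 8951 features, called at an adjusted p under 0.05. The antisense minus sense difference was fitted over 988 windows. The steps were tested on simulated data. The regions, lists and tests were chosen with earlier results of these data known. Named are the 6 highest regions in *rrp6Δ*, the 3 highest in *red1Δ*, *pab2Δ*, *mtl1-17* and *cid14Δ* (each with at least 3 probes well above background in the mutant channel on both arrays), the 3 lowest in *rrp6Δ* and *pab2Δ*, and the 2 with the largest difference each way between *pab2Δ* and *red1Δ* and between *cid14Δ* and *red1Δ*, all past the test. Where no control probe of a region was well above background, only a lower bound of the fold is given. Genes were named by matching control signal along the probe numbers to the ASM294v3 gene table, whose build differs from that of the array, so no coordinates are given. Alternatives were normexp and loess, no centring, the median over probes, probes at a ratio of 0 left out, other unit thresholds and windows, slide and replicate number as blocks, and each array left out. Software was R 4.3.3, limma 3.58.1, data.table (version 1.17.8), Python 3.11.15, numpy 2.4.6, pandas 2.3.3 and matplotlib 3.10.9.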

Additional observations from a re-analysis of the deposited data

How the results depend on the processing

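Of 273 counts under alternative settings, 201 stayed within 1.5 times the reported count and 72 did not. Requiring a log2 change of at least 1 as well left 152 regions higher in *rrp6Δ*, 123 in *red1Δ*, 96 in *pab2Δ*, 60 in *mtl1-17*, 14 in *cid14Δ*, 6 in *iss10Δ*, 10 in *mmi1Δ mei4-P572* and 2 in *sen1Δ*, with 66 different between *red1Δ* and *rrp6Δ* and 7 between *pab2Δ* and *red1Δ*. A unit threshold lower by 1 on the log2 scale, which leaves fewer regions, gave 120 higher in *red1Δ*, 112 in *pab2Δ*, 40 in *cid14Δ*, 6 in *iss10Δ*, 11 in *mmi1Δ mei4-P572* and 6 in *sen1Δ*, with 6 different between *pab2Δ* and *red1Δ* and 117 between *cid14Δ* and *red1Δ*. Leaving out probes at a ratio of 0, which also leaves fewer regions, gave 95 higher in *mtl1-17*, 76 different between *red1Δ* and *rrp6Δ* and 149 between *cid14Δ* and *rrp6Δ*. With normexp and loess, 35 were higher in *cid14Δ* and 8 in *mmi1Δ mei4-P572*. With the median over probes, 31 were higher in *cid14Δ* and 4 in *sen1Δ*, and 119 differed between *cid14Δ* and *red1Δ*. With the series table, 40 were higher in *cid14Δ*, 10 in *mmi1Δ mei4-P572* and 5 in *sen1Δ*, and 26 differed between *pab2Δ* and *red1Δ*. In *sen1Δ*, 5 were higher without centring and 9 with units of other arrays. Between *pab2Δ* and *red1Δ*, 35 differed with slide as a random block, 51 with slide as a fixed term and 26 with a window of 10 positions. The cause of these changes was otherwise not tested. A fixed slide term could not be fitted for a mutant against 0.

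For the strand difference, alternatives chosen after seeing the data were run. Leaving out probes at a ratio of 0 gave antisense above and below sense in 59 and 31 windows in *rrp6Δ*, 74 and 23 for *red1Δ*, 59 and 20 for *pab2Δ* and 31 and 11 for *mtl1-17*, and below in 32 in *cid14Δ*. The median over probes gave 15 and 35 in *cid14Δ*.

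Without 1 array, the regions higher were 224 to 225 in *rrp6Δ*, 161 to 164 in *red1Δ*, 122 to 134 in *pab2Δ*, 84 to 91 in *mtl1-17*, 28 to 41 in *cid14Δ*, 9 to 10 in *iss10Δ* and 2 to 4 in *sen1Δ*. The regions different were 55 to 101 between *red1Δ* and *rrp6Δ*, 191 to 205 between *cid14Δ* and *rrp6Δ*, 2 to 4 between *pab2Δ* and *red1Δ*, and 137 to 162 between *cid14Δ* and *red1Δ*. Antisense was above sense in 107 to 114 windows in *rrp6Δ*, 105 to 123 in *red1Δ*, 86 to 88 in *pab2Δ*, 36 to 55 in *mtl1-17* and 19 to 20 in *cid14Δ*, and below it in 51 to 66, 30 to 31, 19 to 30, 20 to 23 and 47 to 47.

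Replicate numbers did not pair the arrays in a common way, as the differences between replicates of 2 mutants correlated between −0.35 and 0.54 across features. The 0.54 was between *red1Δ* and *iss10Δ*, whose first arrays lay on the same slide. With slide as a random block, the correlation within a slide was 0.36, which the main fit left out. With that block, 263 regions were higher in *rrp6Δ*, 204 in *red1Δ*, 197 in *pab2Δ* and 161 in *mtl1-17*. With the replicate block, 264 regions were higher in *rrp6Δ*, 203 in *red1Δ*, 189 in *pab2Δ*, 155 in *mtl1-17* and 63 in *cid14Δ*, and no count moved by over 1.5 times. Between 18.6% and 69.6% of the control probes of the regions were well above background, which limits the ratios of the dimmest regions.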
